A study of Mus musculus with 365 samples.

Results

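Single triple-negative (TN) progenitor cells of mouse bone marrow were divided by their own Dntt transcript, and the Dntt-positive cells were set against the Dntt-negative cells captured on the same chip. Cells were selected on 1 measured value: a cell with a Dntt level of 25 CPM or more (its Dntt reads as a share of all its gene reads, scaled to 1e6) was called Dntt-positive, and a cell below it Dntt-negative. Of 365 cells in the series, 213 were TN cells, of which 65 were Dntt-positive and 148 Dntt-negative. The other 152 cells, sorted as Ly6D+, were used as an outside reference. Every group was drawn from femur marrow of Flt3Ltg mice on the C57BL/6 background. This transgene raises the level of the Flt3 ligand, its promoter is not named in the labels, and cells without it were not analysed here. Cells came from pools of 2 mice, and each label also gives the Fluidigm C1 run in which the cell was captured. Chips 1, 2 and 3 held TN cells and chips 4, 5 and 6 held Ly6D+ cells. Both sorts are fractions of EPLM, a progenitor population with potential for lymphoid as well as myeloid fates. The labels give no age and do not name the 3 surface markers that TN cells lack.

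Dntt encodes terminal deoxynucleotidyl transferase, the enzyme that adds nucleotides without a template at the joints of rearranging antigen receptor genes. In bone marrow its transcript is one of the earliest to appear as multipotent progenitors enter the lymphoid path, before the recombinase genes Rag1 and Rag2 are strongly on. Progenitors at this stage can still hold transcripts of myeloid and dendritic genes, a state known as multilineage priming.

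Dntt levels lay in separate ranges on both sides of the rule. No Dntt read was found in 144 TN cells, and 4 more had reads below the threshold. The highest level among Dntt-negative cells was 15.6 CPM, followed by 4.68 CPM. The lowest levels among Dntt-positive cells were 31.7 and 48.8 CPM, so the threshold of 25 CPM lay in a gap that no TN cell occupied. The Dntt-positive cells had a median of 1667 CPM, quartiles of 394.5 and 3325 CPM and a highest value of 13712 CPM, and 4 of them lay below 100 CPM. Dntt-positive cells numbered 22 of 75 on chip 1, 25 of 69 on chip 2 and 18 of 69 on chip 3, which is 30.6% ± 5.2 of a chip (SD, n = 3 chips). Since Dntt chose the cells, its level is a description and is not counted in any result that follows.

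**Figure D1:**
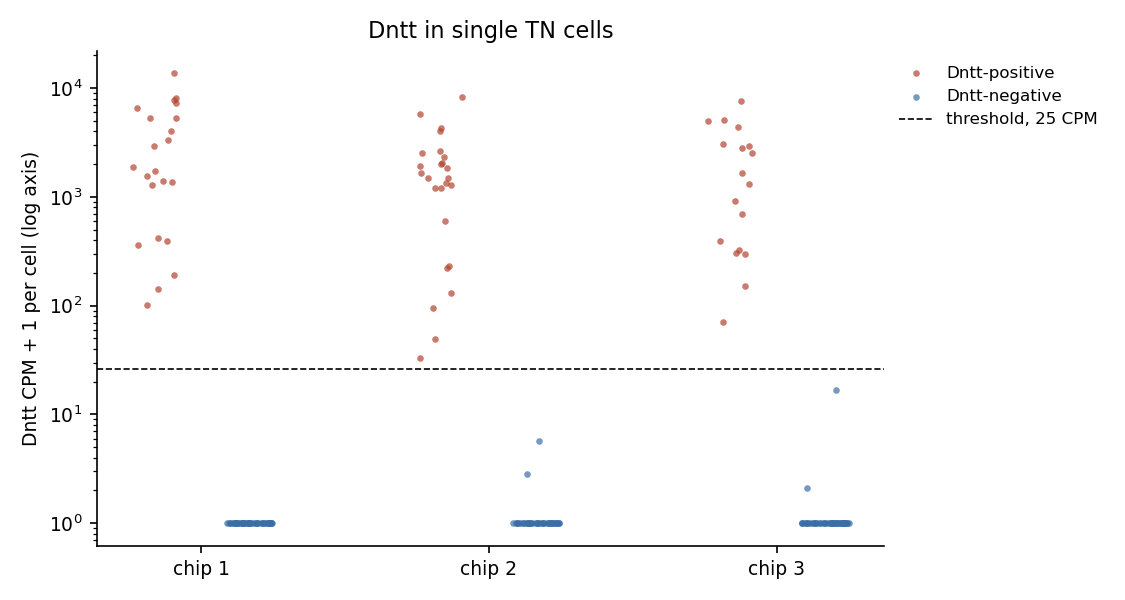
Dntt level of each TN cell as CPM + 1 on a log axis, by chip, with Dntt-positive cells left of Dntt-negative cells and the threshold of 25 CPM dashed. Most Dntt-negative cells lie at 0 reads, and Dntt-positive cells spread from 31.7 to 13712 CPM on the 3 chips.

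Depth was alike on both sides of the rule, and the number of genes seen per cell was not. The median depth per cell was 750788 to 832270 reads on the Dntt-positive side of a chip and 750934 to 820537 reads on the Dntt-negative side. Summed over cells, the sides held 13150546 to 19700887 reads and 35179279 to 43345726 reads per chip. Each cell was thinned to 200000 reads, with 5 of these (25 CPM) as the minimum for detection of a gene. Dntt-positive cells had 2726 ± 198.5 detected genes and Dntt-negative cells 2422 ± 71.5 (SD of chip means, n = 3 chips each). The excess was found on all 3 chips, and the exact two-sided sign-flip permutation test gave p = 0.25, the smallest value that 3 chips allow. Cells with fewer than 1500 detected genes numbered 2 of 65 and 14 of 148. Transcripts of Xist, which marks female cells, were at 25 CPM or more on chip 2 alone among the TN chips, in 52.0% of Dntt-positive and 63.6% of Dntt-negative cells, so both sides of that chip held such cells. The TN label was compared with transcripts: 19 of 65 Dntt-positive and 15 of 148 Dntt-negative cells had Ly6d at 25 CPM or more, although a transcript does not show the surface protein on which cells are sorted.

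The comparison asks which transcripts accompany Dntt within a population sorted as 1 phenotype. Cells are not replicates, so reads were summed over each side of each chip and tested with edgeR's quasi-likelihood test with the chip as a block. This test called 0 of 11740 genes besides Dntt at an adjusted p under 0.05 (smallest adjusted p 0.124). At an unadjusted p under 0.05 it held 323 genes higher (2.75% of those tested) and 531 lower (4.52%). DESeq2 on the same sums called 237 genes higher and 507 lower. In these sums fewer cells of a type and less RNA per cell cannot be told apart. In them a few cells with very high counts can set a gene's value; limma-trend on the mean of log2(CPM + 1) over the cells of each side of each chip weights each cell equally. It called 305 genes higher in Dntt-positive cells (2.6% of 11740) and 95 lower (0.809%). These shares over all genes are the reference for every limma count of a list of genes below. The lists share members, so a gene can be counted in several of them. Below, rose and fell refer to this limma test at an adjusted p under 0.05, and a difference is in mean log2(CPM + 1), which joins how many cells hold a transcript and how much each holds; it is not a fold change. No gene named as having risen or fallen passed edgeR's test. Sums said not to overlap between sides describe the named genes only. The share of all tested genes without such overlap is not given here, so a lack of overlap is no result by itself.

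The limma calls depended on which cells and chips entered. They were 97 higher and 33 lower without chip 1 and 172 higher and 60 lower without chip 2. With the number of detected genes per cell as a covariate, the split changed to 133 higher and 155 lower genes; 128 of the 305 and 80 of the 95 were called again. The median difference over all genes tested was 0.14 without and 0.00 with this covariate. Leaving out each cell with Mpo, Prtn3 or H2-Aa at 25 CPM or more, which kept 32 Dntt-positive and 35 Dntt-negative cells, left 4 genes higher (Cd69, Il12a, Gimap6 and Elf1, named after their values were seen) and 0 lower by limma, while all 305 higher genes and 86 of the 88 lower genes that could still be fitted kept their sign. The median difference of the 305 genes was 1.75 without these cells, against 1.81 with them, and that of the lower genes was -1.21 over the 88 that could be fitted, against -1.72 over all 95. The kept cells are part of those in which the genes were called, so kept signs and medians are no independent support.

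Most listed genes of early lymphoid progenitors rose in Dntt-positive cells. Of 23 tested members of a list of such genes that does not contain Dntt, 14 rose and 0 fell by limma, against 2.6% of all genes higher, and the median difference of the list was 1.98 against 0.14 over all genes. A Dntt-positive cell held 9.82 ± 1.08 of the 23 transcripts and a Dntt-negative cell 4.19 ± 0.270 (SD, n = 3 chips each; exact p = 0.25, the smallest possible). The list includes the markers Gimap6, Lck and Mn1, so its counts and median rest partly on them. The list and the markers were chosen with results of these cells known, so they are no independent evidence of direction.

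Gimap6, a member of the GTPases of immunity-associated proteins that act in lymphocyte survival, had 759, 678 and 864 CPM in the Dntt-positive sums of chips 1, 2 and 3, against 92.6, 167 and 68.9 CPM in the Dntt-negative sums. The 2 ranges did not overlap, and every Dntt-positive sum was above every Dntt-negative one. It was detected in 88.9% ± 6.11 of Dntt-positive cells and 29.8% ± 5.39 of Dntt-negative cells (SD, n = 3 chips), a limma difference of 5.90 ± 0.45 (SE, adjusted p = 5.31e-08). The edgeR log2 fold change of the sums was 2.92 ± 0.39 (SE, adjusted p = 0.183).

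Lck, the Src-family kinase that signals from the T cell receptor and is also made in early lymphoid progenitors, had 554, 404 and 302 CPM in the Dntt-positive sums and 111, 52.9 and 31.4 CPM in the Dntt-negative sums. Chip 1 was highest on both sides and the sides did not overlap. Lck was detected in 65.6% of Dntt-positive and 14.3% of Dntt-negative cells, and rose by 4.58 ± 0.51 (SE, adjusted p = 1.08e-05).

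Mn1, a transcriptional co-regulator known from myeloid leukaemia, had 712, 707 and 711 CPM in the Dntt-positive sums and 122, 361 and 32.3 CPM in the Dntt-negative sums. The Dntt-positive chips were nearly equal, while the Dntt-negative chips spread widely with chip 2 highest. Detection was 63.2% and 13.6%, and the limma difference 4.98 ± 0.48 (SE, adjusted p = 1.72e-06). In the Mn1-detected cells the median level was 653 CPM on the Dntt-positive and 594 CPM on the Dntt-negative side, so the sides differed in the share of cells with the transcript far more than in its level where present.

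The 250 bases before the RefSeq start sites of Dntt, Gimap6 and Lck are shown because these transcripts were found together in single cells, and that of Ms4a6c is shown as the promoter of a gene that fell; it was picked as the fallen gene of lowest p with 1 start site and a match to the ETS core. Motifs of lymphoid and myeloid regulators were searched on both strands, and capitals mark every match: CANNTG, the E-box bound by E proteins such as E2A; TGGGAA, the core bound by Ikaros; and AGGAAGT, a core bound by ETS factors. Sequences are from RefSeq on GRCm38.p6, 5′ to 3′ on the strand of the gene, at chr19:41029025-41029274 on the plus strand for Dntt, chr6:48708245-48708494 on the minus strand for Gimap6, chr4:129558373-129558622 and chr4:129573642-129573891 on the minus strand for both Lck start sites, and chr19:11469118-11469367 on the plus strand for Ms4a6c.

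Dntt: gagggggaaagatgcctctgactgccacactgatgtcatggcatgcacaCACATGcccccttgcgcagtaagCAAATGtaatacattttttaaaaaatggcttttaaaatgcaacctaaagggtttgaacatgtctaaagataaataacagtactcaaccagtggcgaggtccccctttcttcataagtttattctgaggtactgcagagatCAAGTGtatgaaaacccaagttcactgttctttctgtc
Gimap6: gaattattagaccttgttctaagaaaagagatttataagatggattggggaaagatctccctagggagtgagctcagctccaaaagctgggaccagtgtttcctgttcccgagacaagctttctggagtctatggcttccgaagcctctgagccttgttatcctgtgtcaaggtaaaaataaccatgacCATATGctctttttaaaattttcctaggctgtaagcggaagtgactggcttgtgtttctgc
Lck, first site by coordinate: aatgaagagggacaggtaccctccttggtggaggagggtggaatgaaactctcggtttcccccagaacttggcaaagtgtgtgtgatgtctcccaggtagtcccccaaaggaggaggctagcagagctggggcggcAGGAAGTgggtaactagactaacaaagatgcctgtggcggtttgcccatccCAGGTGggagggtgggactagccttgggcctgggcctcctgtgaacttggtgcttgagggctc
Lck, second site by coordinate: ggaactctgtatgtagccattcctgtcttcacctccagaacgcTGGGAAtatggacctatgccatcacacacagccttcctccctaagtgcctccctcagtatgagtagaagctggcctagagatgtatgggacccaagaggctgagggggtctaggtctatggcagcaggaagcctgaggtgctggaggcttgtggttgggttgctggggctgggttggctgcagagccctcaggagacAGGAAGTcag
Ms4a6c: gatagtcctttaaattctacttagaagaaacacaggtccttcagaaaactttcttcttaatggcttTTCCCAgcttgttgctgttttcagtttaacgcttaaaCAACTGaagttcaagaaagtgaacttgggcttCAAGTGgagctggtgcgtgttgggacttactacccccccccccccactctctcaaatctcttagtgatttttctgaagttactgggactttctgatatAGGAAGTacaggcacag

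The Dntt window held 3 E-boxes and the Gimap6 window 1, with neither other motif in these letters. At Lck the first window held 1 E-box and 1 ETS core, and the second window 1 Ikaros core and 1 ETS core. RefSeq windows were used for 230 of the 305 genes that rose (333 windows), 75 of the 95 that fell (94 windows) and 9283 of the 11740 tested (11762 windows). Windows on 1 chromosome and windows not of full length had been left out beforehand. An E-box stood in 58.9% of windows of genes that rose, 72.3% of those of genes that fell and 57.4% of all windows of tested genes. The Ikaros core stood in 18.9%, 25.5% and 20.03%. The ETS core stood in 9.91%, 19.1% and 7.80%. Windows of genes that rose thus held each motif about as often as any tested gene, and the higher shares were those of genes that fell. Matches of the Ikaros core overlapped an E-box in 127 of the 11762 windows and an ETS core in 10. A match describes letters only, and no test was made of these shares.

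The next genes were named for the lowest p in the sums among genes with the same sign on every chip and a log2 fold change of at least 1, so their order of sides was fixed by that choice. Cd69, an early activation antigen that holds lymphocytes in tissue, had 4300.1, 1900.4 and 3065 CPM in the Dntt-positive sums, against 1224, 547 and 1439.8 CPM in the Dntt-negative sums (limma difference 3.84 ± 0.32, SE, adjusted p = 1.83e-07). Il12a, which encodes the p35 subunit of interleukin 12, had 719.9, 524 and 984 CPM, against 184, 56.9 and 171 CPM (limma difference 5.00 ± 0.45, SE, adjusted p = 5.67e-07). Both were present in most Dntt-positive cells, at 94.0% for Cd69 and 89.7% for Il12a, and in 65.5% and 39.9% of Dntt-negative cells. Notch1, the receptor that directs progenitors towards the T lineage, had 225, 239 and 259 CPM, against 29.0, 30.5 and 33.2 CPM, and its chips lay close together on both sides (edgeR log2 fold change 2.98 ± 0.36, SE, adjusted p = 0.172). Arpp21, which is known as a transcript of early B- and T-lineage progenitors, had 109, 174 and 289.9 CPM, against 4.82, 9.32 and 21.6 CPM. Dusp2, a phosphatase of MAP kinases, had 529.7, 307 and 378 CPM, against 119.8, 82.0 and 80.8 CPM. No chip of either gene overlapped between sides. Hmga2, a chromatin protein of fetal and stem cells, had 170.3, 233 and 38.5 CPM, against 11.3, 13.0 and 1.76 CPM, with chip 3 low on both sides. Car2, a carbonic anhydrase, had 401, 244 and 203 CPM, against 88.9, 35.6 and 26.4 CPM. All 7 genes rose by limma, with adjusted p from 1.83e-07 for Cd69 to 0.0108 for Hmga2.

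**Figure D2:**
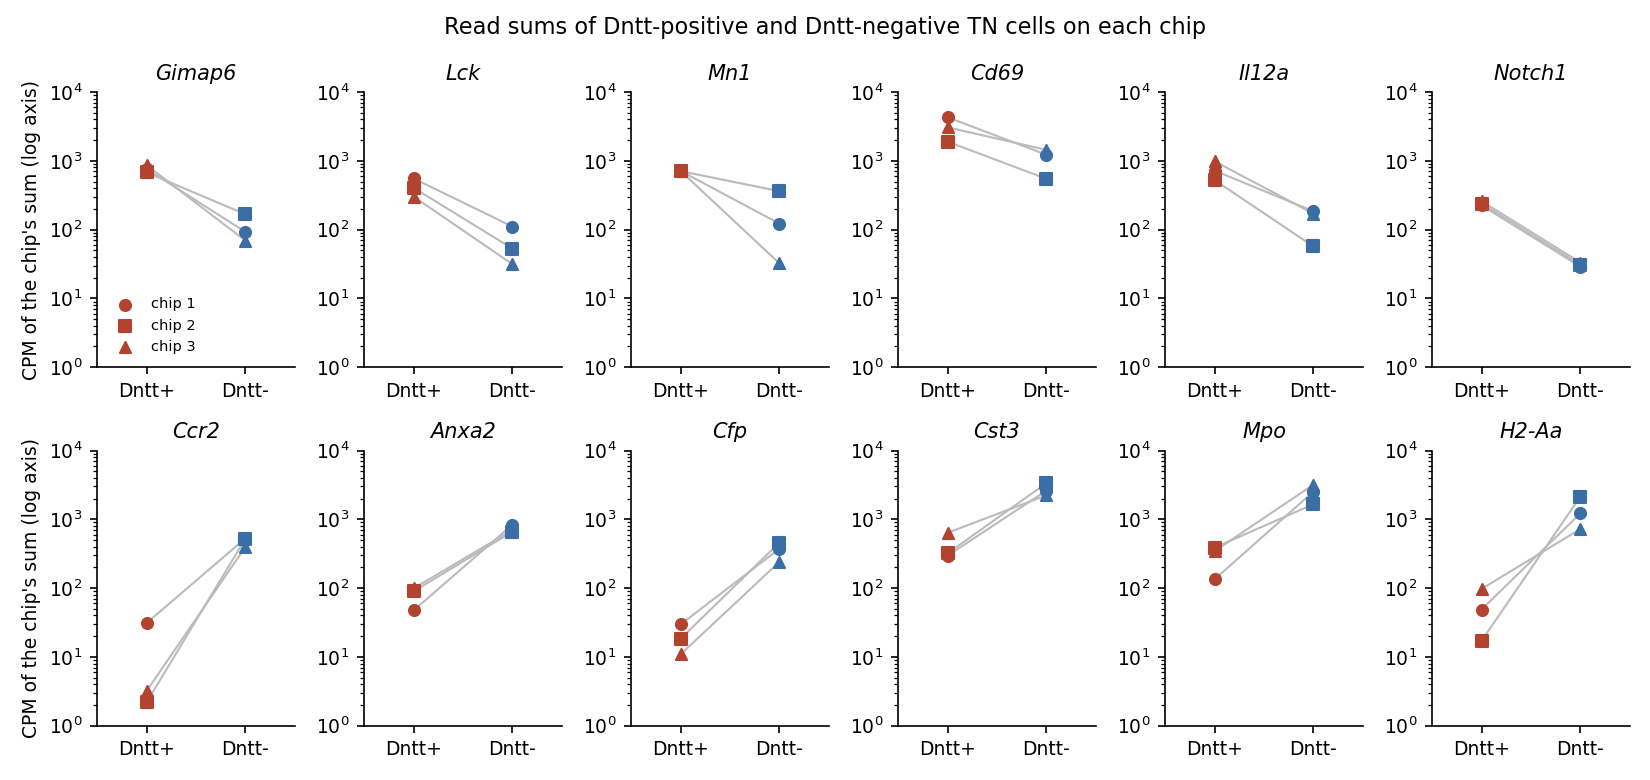
CPM of the read sums of each chip (log axis) for 12 genes, with Dntt-positive sums (red) left of Dntt-negative sums (blue); marker shapes are chips and grey lines join the sides of a chip. In the upper row every Dntt-positive sum lies above every Dntt-negative one, as for Notch1 with 225 to 259 CPM against 29.0 to 33.2 CPM, and in the lower row every one lies below.

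Within the early lymphoid list, the cytokine receptor gene Flt3, whose ligand drives early progenitors, was detected in 81.9% of Dntt-positive and 45.6% of Dntt-negative cells (limma adjusted p = 3.38e-04). Satb1, a chromatin organiser that promotes lymphoid fate, was detected in 70.9% and 38.3% (limma adjusted p = 7.08e-04). Cd27, a receptor of the TNF family found on early lymphoid progenitors, was detected in 58.7% and 21.6%, with 337, 155 and 151 CPM against 86.6, 53.8 and 113 CPM (limma adjusted p = 0.00563). All 3 rose, and each was found on both sides rather than restricted to Dntt-positive cells. Rag2, a subunit of the recombinase, was rarer and more one-sided: its sums were 145, 73.8 and 78.3 CPM, against 0.646, 0.455 and 21.04 CPM, and detection was 23.9% ± 10.47 and 2.69% ± 1.08 (SD, n = 3 chips; limma adjusted p = 0.00712).

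Il7r, the receptor chain for interleukin 7, was detected in 28.5% ± 6.97 of Dntt-positive and 8.87% ± 4.28 of Dntt-negative cells, but its sums were 57.2, 428 and 219 CPM and 440.3, 179 and 60.5 CPM, so that chip 1 had the reverse order, and it did not pass (limma adjusted p = 0.0686). Where present, it stood at a median of 308 CPM in Dntt-positive and 2166 CPM in Dntt-negative cells. Ly6d, the surface protein gene that defines the other sort, had 156, 427 and 969 CPM, against 59.6, 29.8 and 21.4 CPM, and rose (limma adjusted p = 0.0198). The Dntt-positive chips lay far apart for Ly6d, with chip 3 highest, and with detected genes as a covariate its difference was 1.99, against 2.21 without, at an adjusted p of 0.0516 by limma. Rag1, the catalytic partner of Rag2, had 8.52, 32.6 and 0.532 CPM, against 0.0231, 0 and 0 CPM, and did not pass (limma adjusted p = 0.0802). Ebf1, the factor that sets B-lineage identity, was detected in 7.55% and 2.14% of cells and did not pass (limma adjusted p = 0.11).

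In the Gimap family, by limma 5 of 7 tested members rose and 0 fell, at a median of 2.26, and the 5 were also called with the number of detected genes as a covariate. Gimap4 had 268, 166 and 239.9 CPM in the Dntt-positive sums, against 3.18, 24.6 and 5.61 CPM, and Gimap9 164, 130.3 and 141 CPM, against 90.5, 54.3 and 39.3 CPM. Neither overlapped between sides. Gimap7 had 119.9, 139 and 12.9 CPM, against 3.69, 2.16 and 109 CPM, with the order reversed on chip 3, while its detection was 29.5% and 5.23% (limma adjusted p = 0.00724). Members of this family are alike in sequence, so reads could have been split among them in the counting, and single members are uncertain to that extent.

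Of the factors that control lymphoid genes, 8 of 23 tested rose and 0 fell by limma, and all 8 were called with the covariate too. Besides Mn1 and Satb1 these were Myb, Elf1, Foxp1, Mef2c, Ikzf1 and Sox4. Elf1, an ETS factor of lymphoid cells, had 592, 683 and 908 CPM, against 259, 287 and 396 CPM (limma adjusted p = 9.85e-05). Mef2c, which favours lymphoid over myeloid fate, had 1614, 1177 and 767 CPM, against 425, 768 and 571 CPM (limma adjusted p = 4.79e-04). Chip 3 of the Dntt-positive side lay at the level of chip 2 of the Dntt-negative side for Mef2c, so only the paired order separated the sides there. Ikzf1, which encodes Ikaros, was detected in 89.1% and 66.4% (limma adjusted p = 0.00194), and Tcf3 and Ets1 of the same list did not pass. The T-lineage factors Tcf7 and Gata3 did not pass (limma adjusted p = 0.538 and 0.759), and Tcf7 was detected in 8.07% of Dntt-positive and 12.7% of Dntt-negative cells.

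Of the E proteins and their Id inhibitors, which together set lymphoid gene activity, 1 of 8 tested rose and 1 fell. Tcf4, an E protein of plasmacytoid dendritic and lymphoid cells, had 489, 568 and 673 CPM, against 256, 345 and 494 CPM, with overlap across chips and the same order within each (limma adjusted p = 0.00243). Id2, the inhibitor needed by innate lymphoid and dendritic cells, had 101.2, 10.4 and 392 CPM, against 742, 1513 and 1723 CPM, and fell (limma adjusted p = 0.00192). The Dntt-positive chips were far apart for Id2, with chip 2 lowest and chip 3 highest, yet all were below the Dntt-negative ones.

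B-lineage transcripts were few on both sides. By limma 3 of 17 tested B-lineage genes rose and 0 fell: Blnk, an adaptor of the B cell receptor, Cd72, a B cell co-receptor, and Myl4, a myosin light chain found in early B-lineage cells. Blnk had 152, 279 and 155 CPM, against 53.4, 0.569 and 0.0801 CPM, and was detected in 23.7% and 1.26% (limma adjusted p = 0.0041). A Dntt-positive cell held 1.99 ± 0.459 of the 22 B-lineage transcripts and a Dntt-negative cell 0.887 ± 0.131 (SD, n = 3 chips). Of 13 tested T-lineage genes, Lck and Lat, an adaptor of T cell receptor signalling, rose and 0 fell. Cd3e had no read on either side. Of 13 tested NK and innate lymphoid genes, Nkg7, a granule protein of cytotoxic lymphocytes, rose, and Id2 and Klrk1, an activating NK receptor, fell. Nkg7 was at 495, 368 and 591 CPM, against 279.5, 163 and 96.9 CPM, and in 74.9% and 29.1% of cells (limma adjusted p = 4.89e-06).

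Of 17 tested genes of V(D)J recombination and end joining, in which Dntt itself takes part, 3 rose and 0 fell by limma: Rag2; Xrcc6, which encodes the Ku70 end-binding protein; and Hmgb1, a DNA-bending cofactor of the recombinase. Xrcc6 had 665, 514 and 358 CPM, against 197, 196 and 65.7 CPM (limma difference 3.11 ± 0.46, SE, adjusted p = 3.38e-04). Chips of Hmgb1 overlapped between sides, with 368, 468 and 739 CPM and 247, 377 and 448 CPM, and it was no longer called with the covariate (adjusted p = 0.493). Among 17 tested cytokine receptor genes, Flt3, Il2rg and Il1r1 rose and Csf1r fell. Il2rg, the shared gamma chain of the receptors for interleukins 2 and 7, had 320.5, 503 and 427 CPM, against 239, 130.5 and 180.4 CPM. Il1r1, the interleukin 1 receptor, had 228, 141 and 204 CPM, against 72.8, 62.2 and 67.2 CPM. Neither overlapped between sides.

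Of 16 tested genes of stem and multipotent progenitors, 6 rose and 0 fell by limma. Cd34, a surface sialomucin of progenitors, had 658, 708 and 573 CPM, against 317, 287 and 349 CPM, and was detected in 73.5% and 42.3% (limma adjusted p = 4.53e-04). Ly6a, which encodes Sca-1, had 99.9, 263 and 991 CPM, against 30.6, 24.4 and 226 CPM (limma adjusted p = 8.43e-05). Chip 3 was highest on both sides for Ly6a, and its Dntt-negative sum was above the Dntt-positive sum of chip 1, so the order held only within chips. Chip 3 also led a list of 15 interferon-response genes, of which 0 rose or fell by limma: its summed level was 3851 CPM in Dntt-positive and 2304 CPM in Dntt-negative cells. On chip 1 it was 601.0 and 832.3 CPM, and on chip 2 747.4 and 758.3 CPM, for Dntt-positive and Dntt-negative cells in that order. Kit, the receptor for stem cell factor, did not pass (137, 253 and 75.4 CPM and 274, 277 and 81.2 CPM, limma adjusted p = 0.9). The other 4 that rose were Adgrg1, Angpt1, Sox4 and Hoxa9.

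Of 15 tested plasmacytoid dendritic genes, Tcf4, Ly6d and Cox6a2 rose and 0 fell by limma, and the median of the list was 0.07 against 0.14 for all genes. Siglech, a defining surface lectin of these cells, was detected in 7.55% and 10.7% of cells and did not pass (limma adjusted p = 0.8). Cox6a2, a subunit of cytochrome oxidase, had 167, 126 and 235 CPM, against 60.5, 56.3 and 42.7 CPM (limma adjusted p = 3.38e-04).

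**Figure D3:**
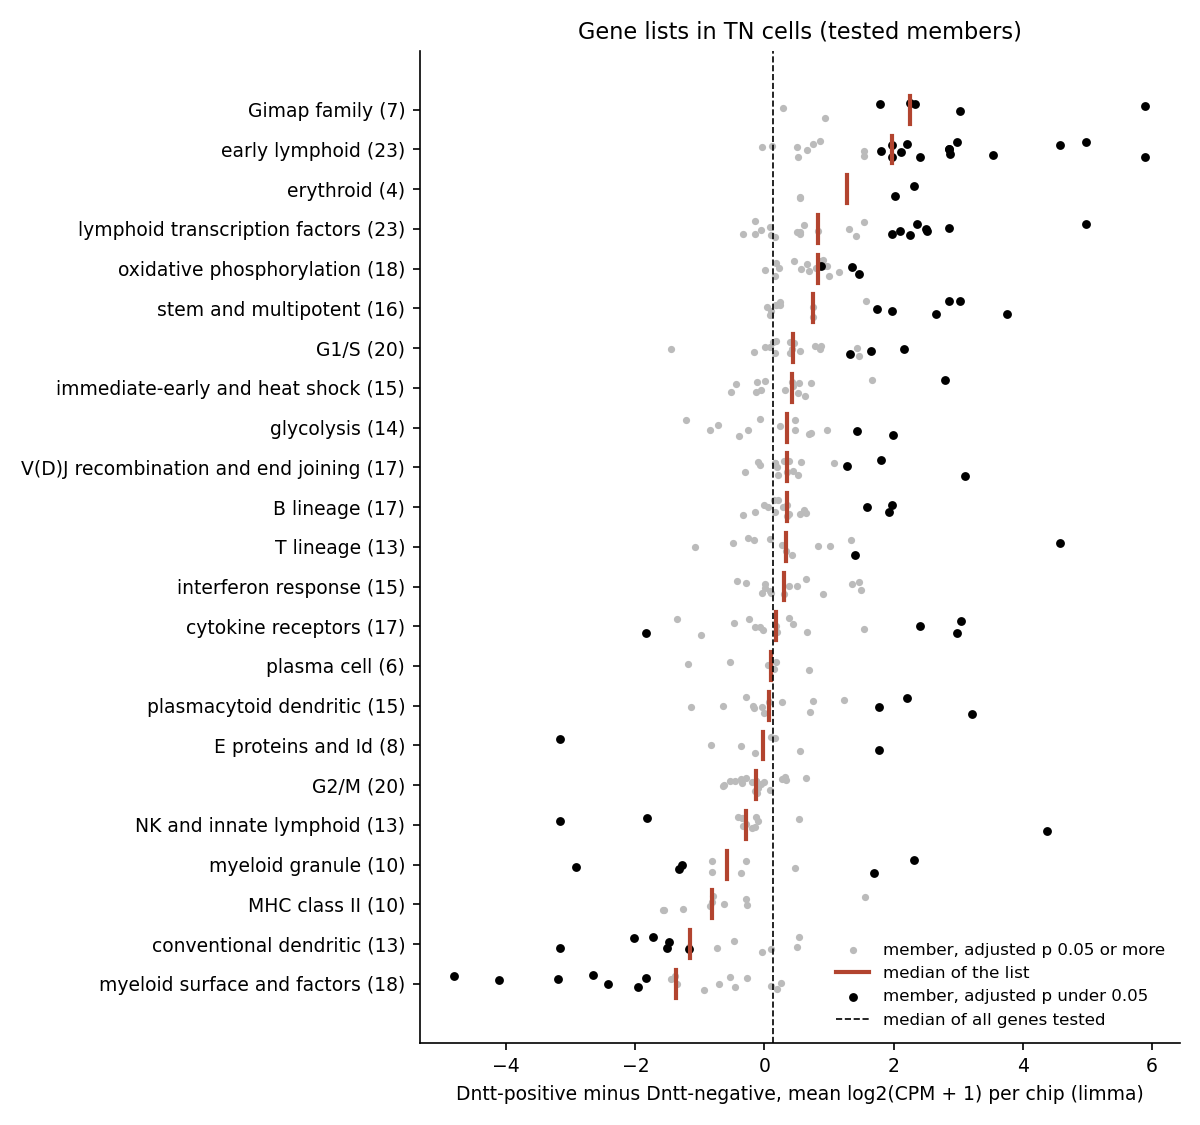
Difference between Dntt-positive and Dntt-negative TN cells in mean log2(CPM + 1) (limma) for the tested members of each list with 4 or more; black points have an adjusted p under 0.05, red bars are list medians and the dashed line is the median of all genes tested, 0.14. Medians run from -1.36 for myeloid surface genes and factors to 2.26 for the Gimap family.

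Part of the myeloid and conventional dendritic genes fell in Dntt-positive cells. Of 18 tested myeloid surface genes and factors, 7 fell and 0 rose by limma, against 0.809% of all genes lower, at a median of -1.36. A Dntt-positive cell held 4.30 ± 0.561 of the 19 transcripts and a Dntt-negative cell 7.20 ± 0.471 (SD, n = 3 chips each). Their summed level was 1341 to 2647 CPM per chip in Dntt-positive and 4198 to 4923 CPM in Dntt-negative cells.

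Ccr2, the chemokine receptor of monocytes and their progenitors, had 31.0, 2.18 and 3.19 CPM in the Dntt-positive sums, against 529, 523 and 397 CPM in the Dntt-negative sums. It was detected in 4.70% ± 0.789 and 56.4% ± 9.90 of cells (SD, n = 3 chips), a limma difference of -4.81 ± 0.50 (SE, adjusted p = 4.60e-06). The other 6 were Anxa2, Fcer1g, Tyrobp, Ly6c2, Ly86 and Csf1r. Anxa2, a membrane-binding annexin, had 47.3, 89.6 and 99.1 CPM, against 836, 661 and 698 CPM. Fcer1g and Tyrobp, signalling chains shared by myeloid and NK receptors, were detected in 56.2% and 73.5% of Dntt-positive cells and in 87.8% and 94.2% of Dntt-negative cells. Csf1r, the receptor that drives macrophage development, had 114, 43.4 and 32.7 CPM, against 129, 148 and 159 CPM, with chip 1 nearly level between sides (limma adjusted p = 0.0299). The factors Spi1, Cebpa and Cebpb of the same list did not pass.

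The myeloid granule list, which holds protease inhibitors beside granule proteins, had calls in both directions. Of 10 tested members, Prtn3, Elane and Igsf6, which encodes a membrane protein, fell. Those that rose were Serpinb1a, an inhibitor of granule proteases, and Cst7, a cystatin. The granule protein genes Ctsg and Lyz2 had limma differences of -0.82 and -0.81 and did not pass. Elane, which encodes neutrophil elastase, had 0 reads in all Dntt-positive cells and 196, 66.7 and 190.3 CPM in the Dntt-negative sums. Only 26 of 148 Dntt-negative cells held its reads. Prtn3, a granule protease, had 3.21, 16.9 and 43.1 CPM, against 272, 181 and 359.8 CPM, and was detected in 17.96% and 48.9% (limma adjusted p = 0.00136). Serpinb1a had 437, 207 and 256 CPM, against 163, 90.4 and 188 CPM (limma adjusted p = 0.0174), and neither riser was called with the covariate.

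Mpo, the myeloperoxidase gene of granulocyte and monocyte progenitors, was found in similar shares of cells on both sides, with lower sums on the Dntt-positive side. It was detected in 36.0% ± 8.12 of Dntt-positive and 32.6% ± 9.30 of Dntt-negative cells (SD, n = 3 chips), while its sums were 134, 387 and 345 CPM and 2527, 1656 and 3185 CPM. In cells that held it, its median was 447 and 2216 CPM. The edgeR log2 fold change was -3.17 ± 0.40 (SE, unadjusted p = 2.39e-04, adjusted p = 0.179 by the quasi-likelihood test), and limma did not call it (-0.36 ± 0.56, adjusted p = 0.808). H2-Aa, an MHC class II chain, showed the same form. Its detection was 22.4% and 29.6%, its sums 48.8, 17.1 and 97.1 CPM and 1216, 2139 and 723 CPM, and its median in detected cells 81.2 and 4171 CPM. Of 10 tested MHC class II genes, 0 rose or fell by limma. At an unadjusted p under 0.05 in edgeR 1 was higher and 4 were lower, against 2.75% and 4.52% of all genes tested. The summed level of the MHC class II list was 514 to 1165 CPM per chip in Dntt-positive and 2759 to 6659 CPM in Dntt-negative cells.

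Of 13 tested conventional dendritic genes, 6 fell and 0 rose by limma. Id2, already counted in the lists of Id inhibitors and of innate lymphoid genes, is among the 6. Cst3, which encodes cystatin C and is abundant in dendritic cells, was detected in 88.5% and 89.3%, but its sums were 296, 319 and 637 CPM, against 2614, 3352 and 2229.7 CPM, with no overlap (limma difference -1.72 ± 0.29, SE, adjusted p = 0.00121). Irf8, a factor of dendritic and monocyte progenitors, had 494, 886 and 816 CPM, against 1496, 1257 and 1529.8 CPM (limma adjusted p = 7.66e-04). Without cells holding Mpo, Prtn3 or H2-Aa its difference was 0.0027, and that of Cst3 was -0.13. Batf3 and Clec9a, a factor and a lectin of cross-presenting dendritic cells, had 0, 0 and 0.608 CPM and 0, 0 and 2.51 CPM in Dntt-positive sums, against 37.3, 53.0 and 144 CPM and 38.3, 181 and 18.2 CPM. Naaa, a lysosomal amidase of the same cells, had 0 reads in Dntt-positive cells and 43.6, 47.8 and 31.1 CPM in Dntt-negative sums.

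Among the other genes that fell, Lgals3, a galectin of macrophages, had 0 reads in all Dntt-positive cells and 102, 327 and 189 CPM in the Dntt-negative sums (limma adjusted p = 3.40e-04). Ifi30, a lysosomal thiol reductase of antigen-presenting cells, had 0.221, 0.152 and 1.22 CPM, against 105, 76.2 and 293 CPM. Cfp, which encodes properdin of the complement system, had 29.7, 18.3 and 10.9 CPM, against 373, 459 and 241 CPM. For these 3 genes no Dntt-positive sum reached any Dntt-negative one. All genes of this paragraph were named among genes with the same sign on every chip. Their order of sides within chips was thus fixed by that choice. Ctsh, a lysosomal cathepsin, had 8.91, 41.4 and 92.8 CPM, against 403, 359 and 403 CPM. Grn, which encodes progranulin, had 83.2, 64.4 and 221 CPM, against 722, 459 and 594 CPM. Pld4, an endolysosomal nuclease of myeloid and dendritic cells, had 27.4, 33.2 and 311 CPM, against 471, 572 and 604 CPM. Chip 3 was the highest Dntt-positive chip for all 3 and still below each Dntt-negative chip. Ms4a6c, Rassf4, Anxa5, Anxa6 and Rab7b fell as well, with limma adjusted p from 9.85e-05 for Anxa6 to 0.0184 for Rab7b. Tmsb4x, a thymosin that binds actin, was in nearly all cells and had 1175, 1115 and 1401 CPM, against 2736, 3439 and 3186 CPM (limma difference -1.03 ± 0.17, SE).

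Calls of higher cycle and metabolism genes were lost with detected genes as a covariate. By limma 3 of 20 G1/S genes (Mcm6, Mcm4 and Mcm3, subunits of the replicative helicase), 2 of 14 glycolysis genes (Tpi1 and Gpi1) and 3 of 18 oxidative phosphorylation genes (Sdhb, Atp5b and Atp5a1) rose and 0 fell. With the number of detected genes as a covariate 0 of these 8 were called. In the sums Mcm3 and Atp5a1 had edgeR log2 fold changes of -0.02 and -0.01, so their direction was not the same there. Of 20 tested G2/M genes 0 rose or fell by limma, and the summed level of the list was 2406 to 3461 CPM per chip in Dntt-positive and 3468 to 4801 CPM in Dntt-negative cells. With the covariate the median differences were -0.38 for the G1/S and -0.80 for the G2/M list, and 1 member of each was called lower. The immediate-early gene Nr4a1, which codes for a nuclear receptor induced by antigen receptor signals, rose as 1 of 15 tested immediate-early and heat shock genes (525, 317 and 323 CPM, against 229, 127 and 43.1 CPM, limma adjusted p = 0.00131).

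Markers of cell types outside the sort were also counted. The 10 mature neutrophil genes had 0 reads in Dntt-positive cells and 3.23 to 56.9 CPM per chip in Dntt-negative cells. The 10 megakaryocyte, mast cell and basophil genes summed to 29.9 to 122 CPM and 29.8 to 190.5 CPM, with no member called. Of 4 tested erythroid genes Car2 and Tfrc, which are not restricted to erythroid cells, rose, and 8 of the 14 erythroid genes had no read in any TN cell. Of 6 tested plasma cell genes 0 rose or fell, and of 2 tested mature B cell genes Cd22 fell. The part of doublets in cells that held both lymphoid and myeloid transcripts was not tested.

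In single cells the markers met often on the Dntt-positive side, and seldom on the other. All 3 of Gimap6, Lck and Mn1 were at 25 CPM or more in 32 of 65 Dntt-positive cells and 6 of 148 Dntt-negative cells. By chip these were 59.1%, 56.0% and 27.8% of Dntt-positive and 1.89%, 6.82% and 3.92% of Dntt-negative cells on chips 1, 2 and 3. None of them was present in 3 of 65 Dntt-positive cells and 90 of 148 Dntt-negative cells. The order held on every chip, and chip 3 had the lowest Dntt-positive share. These markers were chosen with results of these cells known, so their order of sides is a description and no independent evidence. Lymphoid and myeloid transcripts were also found together: Gimap6 and Mpo were both present in 22 of 65 Dntt-positive cells and 18 of 148 Dntt-negative cells, and Lck and Mpo in 15 of 65 Dntt-positive cells and 5 of 148 Dntt-negative cells. Gimap6 and Lck were each commoner by themselves in Dntt-positive cells, while Mpo was in similar shares of both sides. The higher joint counts therefore do not show that these transcripts met more often than their single shares give. At least 1 of Mpo, Prtn3 and H2-Aa was present in 33 of 65 Dntt-positive cells and 113 of 148 Dntt-negative cells. Dntt-positive cells were thus not free of these transcripts.

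**Figure D4:**
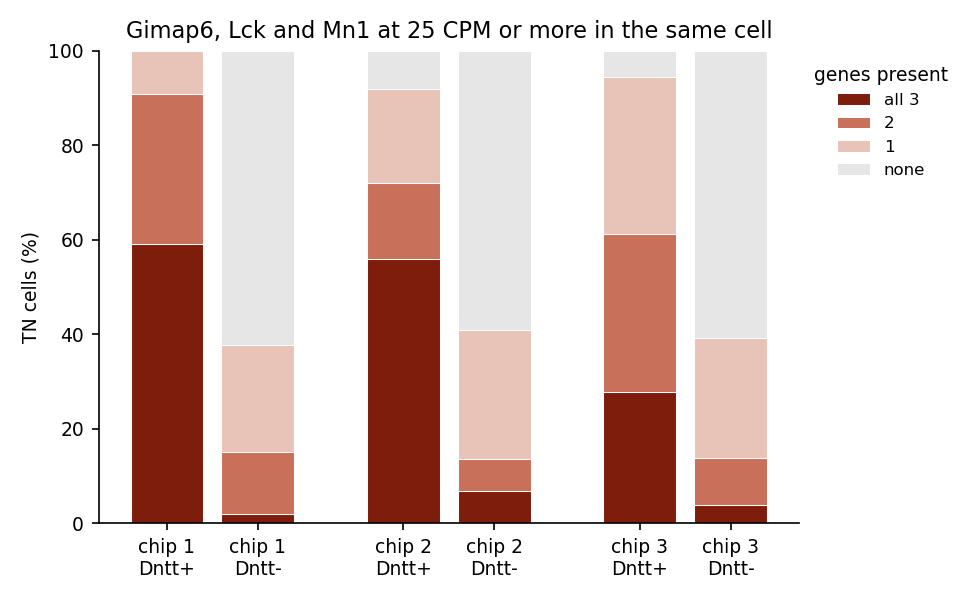
Share of TN cells (%) on each chip with all 3, 2, 1 or none of Gimap6, Lck and Mn1 at 25 CPM or more, with the Dntt-positive bar left of the Dntt-negative bar. The dark share with all 3 is 59.1%, 56.0% and 27.8% in Dntt-positive and 1.89%, 6.82% and 3.92% in Dntt-negative cells on chips 1, 2 and 3.

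Transcripts of further steps of the lymphoid path were each seen in a minority of cells. Rag1 or Rag2 was present in 18 of 65 Dntt-positive cells and 4 of 148 Dntt-negative cells. Ly6d was present in 19 of 65 Dntt-positive cells and 15 of 148 Dntt-negative cells, and Il7r in 19 of 65 Dntt-positive cells and 13 of 148 Dntt-negative cells. At least 1 of Ly6d and Il7r was present in 31 of 65 Dntt-positive cells and 28 of 148 Dntt-negative cells. Both together were found in 7 of 65 Dntt-positive cells and 0 of 148 Dntt-negative cells. A count of 0 among 148 cells does not show that such cells are absent. Ebf1 was present in 5 of 65 Dntt-positive cells and 3 of 148 Dntt-negative cells.

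The Ly6D+ cells show where the Dntt-positive TN cells stood beside a population sorted for a lymphoid marker. Of 152 Ly6D+ cells, 141 had Dntt at 25 CPM or more, with a median of 3262 CPM in those cells. Chips held 1 sort each, so chip and sort cannot be told apart in this comparison. By edgeR 0 of 11049 genes besides Dntt passed (219 higher and 366 lower at an unadjusted p under 0.05, smallest adjusted p 0.603), and DESeq2 called 29 higher and 118 lower. By limma 1 gene was higher in Dntt-positive TN cells (0.00905%) and 11 were lower (0.0996%).

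The 11 genes that were lower than in Ly6D+ cells included known B-lineage genes. Ly6d was detected in 30.2% of Dntt-positive TN and 94.6% of Ly6D+ cells, as the sort required (limma difference -7.23 ± 0.62, SE, adjusted p = 5.03e-06). Il7r was detected in 28.5% and 71.3% (limma adjusted p = 0.0102). Ebf1 was detected in 7.55% and 41.8% (limma adjusted p = 0.0102), and Rag1 in 4.18% and 36.9% (limma adjusted p = 0.0322). Cd79a, a signalling chain of the B cell receptor, had 0, 124 and 0 CPM in Dntt-positive TN sums, against 366, 492 and 378 CPM in the Ly6D+ sums of chips 4, 5 and 6. Blk, a B cell kinase, had 0, 14.4 and 5.70 CPM, against 143, 153 and 204 CPM, and Mzb1, a chaperone of antibody assembly, 0, 50.1 and 139.6 CPM, against 201, 103 and 206 CPM. Myl4, Chst15, Cecr2 and Thrb were the other 4 lower genes. The gene that was higher was Cd34, with 658, 708 and 573 CPM, against 229, 106 and 233 CPM, and detection of 73.5% and 40.6% (limma difference 3.42 ± 0.58, SE, adjusted p = 0.0192).

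Of the genes that had risen over Dntt-negative cells, Cd34 was the higher one here and Ly6d and Myl4 were among the 11 lower ones, while Gimap6, Lck, Mn1 and Notch1 did not pass. Gimap6 was detected in 88.9% of Dntt-positive TN and 92.2% of Ly6D+ cells, Lck in 65.6% and 72.2%, Mn1 in 63.2% and 60.0% and Notch1 in 66.9% and 64.8%, with limma differences of -0.55 ± 0.42, -0.70 ± 0.56, 0.49 ± 0.63 and 0.10 ± 0.54 (SE). Of the early lymphoid list a Dntt-positive TN cell held 9.82 ± 1.08 members and a Ly6D+ cell 12.5 ± 0.763 (SD, n = 3 chips each), and of the B-lineage list 1.99 ± 0.459 and 5.21 ± 0.330. For myeloid surface genes and factors the values were 4.30 ± 0.561 and 3.87 ± 0.132. A gene that misses the threshold is not shown to be equal in both populations.

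**Figure D5:**
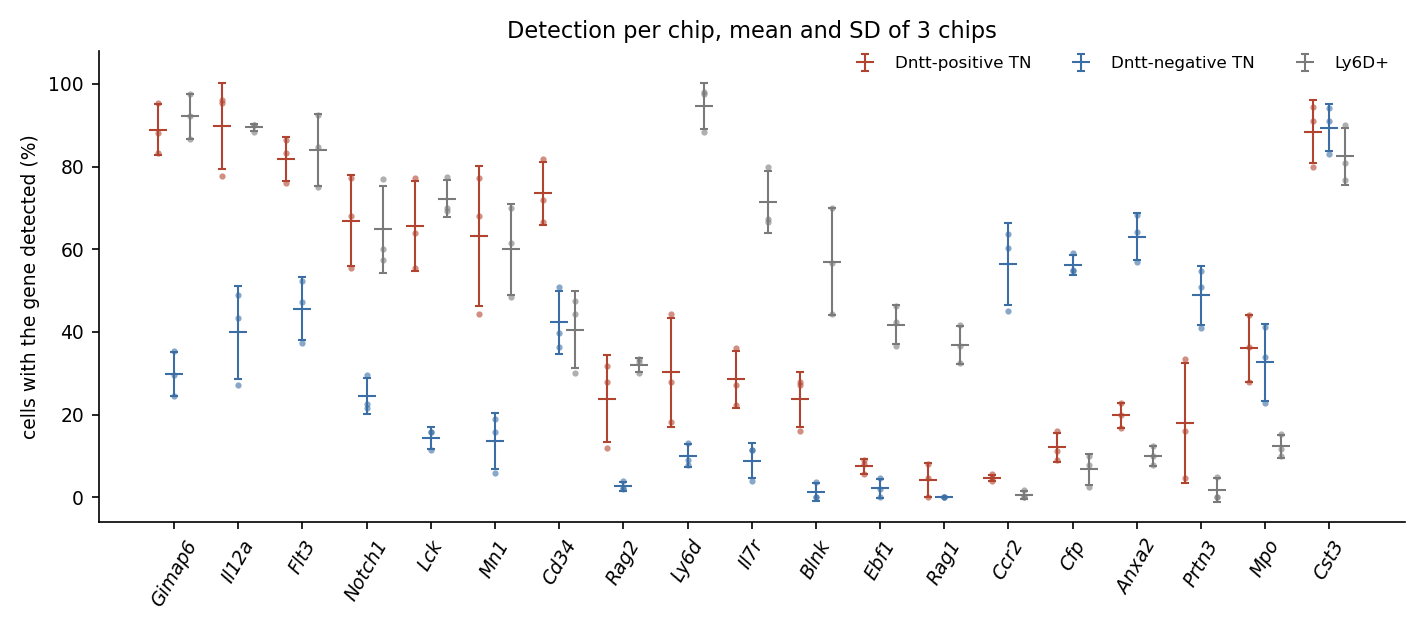
Share of cells (%) in which each of 19 genes was detected (5 or more of 200000 thinned reads) in Dntt-positive TN, Dntt-negative TN and Ly6D+ cells; points are chips, bars mean ± SD of 3 chips. Gimap6 stands at 88.9% in Dntt-positive TN and 92.2% in Ly6D+ cells, and Ly6d at 30.2% against 94.6%.

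Among Dntt-positive cells alone, the level of Dntt was compared with that of other transcripts. Over 4924 genes detected in 20% or more of these cells, the mean of the within-chip Spearman correlation with Dntt was highest for 9030619P08Rik at 0.49 (0.51, 0.55 and 0.41 on chips 1, 2 and 3), followed by Gm5111, Lax1, Ttc5, Mn1, Ablim1, Fbxw4 and Xrcc6 at 0.41. It was lowest for Tmem256 at -0.53 (-0.42, -0.64 and -0.52), with Zfp217, Zfp740, Knl1 and Ttyh2. Each value rests on 18 to 25 cells a chip that share a library preparation and differ in depth, and extremes of 4924 correlations are large by selection. Gimap6 stood at 0.41, Rag2 at 0.35, Lck at 0.25, Ly6d at 0.03 and Il7r at 0.04, the last with 0.49, -0.19 and -0.19 on the 3 chips and hence no common sign. Cst3 and Irf8 had -0.31 and -0.24.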

How the data were processed

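Single cells were captured on Fluidigm C1 chips, and full-length cDNA was made with SMARTer chemistry and turned into libraries with Nextera XT, per the labels' protocols. Such libraries carry no molecular identifiers and no strand mark, so read counts are not counts of molecules, and reads of antisense or overlapping genes cannot be told apart. The authors deposited raw counts of reads, with genes in lines and cells in columns. The submitters' processing notes name mm9 and R 3.2.0. Aligner, counter and annotation: not given in the sources used here. Cells with under 60% of reads mapped, too few counts or under 800 detected genes had been left out, per the series' design text, and no doublet caller was run here. Of 23427 Entrez identifiers 23334 took symbols from a RefSeq table (GRCm38.p6), used for names and, separately, for promoter sequences.

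CPM is a cell's or sum's counts divided by its gene reads, times 1e6. Reads were summed per chip and side, filtered with filterByExpr and tested with edgeR 4.0.16 (quasi-likelihood F-test, TMM, chip as block; Benjamini-Hochberg adjusted p) in R 4.3.3. SEs of edgeR values are |log2 fold change|/√F. limma 3.58.1 (trend) on chip-and-side means of log2(CPM + 1) and DESeq2 1.42.0 were further tests on the same sides and chips. The limma calls were taken as the described ones after edgeR had called 0 genes, so their further settings were chosen after seeing the data. No label ties mice to chips, so p-values reflect only how the 3 chips varied, and this may be technical. The chip pairs the sides by design, since both sides of a chip are cells of the same capture.

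Members, gene lists and tests were chosen with earlier results of these data known. Genes were named by set rules. The first took the 8 with the lowest edgeR p in each direction among those with a log2 fold change of at least 1. They also needed the same sign on every chip and detection in at least 20% of cells on the higher side. Further rules took 24 fixed genes, up to 3 called members per list, where limma calls stood in for edgeR's, and the extremes of the correlation with Dntt. Added after values were seen were the 12 largest limma differences in each direction and single members named beside their counts. Those 12 were taken among called genes that met the same sign and detection conditions. The steps were tested on simulated data.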

Additional observations from a re-analysis of the deposited data

How the results depend on the processing

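The settings of edgeR that were run called at most 4 genes in a direction in the comparison of the sides besides Dntt. The 0 higher and 0 lower genes became 237 and 507 with DESeq2, 305 and 95 with limma on chip means, and 1 and 4 with no replicate block; cells thinned to equal depth gave 0 and 1, and leaving out each chip in turn gave 0 to 0 in both directions. Against Ly6D+ cells the 0 and 0 became 29 and 118 with DESeq2 and 1 and 11 with limma, and leaving out each chip gave 0 to 0 higher and 0 to 3 lower genes (3 without chip 2). The cause of the gap between the tools was not tested.

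The limma counts of 305 and 95 were 116 and 56 with no replicate block, 59 and 19 with no filter beyond 1 read, 133 and 155 with detected genes as covariate and 4 and 0 without cells with Mpo, Prtn3 or H2-Aa (by limma; 32 and 35 cells remained). Leaving out each chip gave 97 to 290 higher and 33 to 74 lower. They were within 1.5 times of 305 and 95 when cells were thinned, when cells of few detected genes or cells with Ly6d were left out and at thresholds for Dntt of 1 read or of 100 CPM. All 305 higher genes kept their sign under each of these settings, which reuse the cells that chose these genes and so give no independent support.

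Of 514 alternatives for 37 single genes in the sums, 11 changed sign: Il7r (-0.45 without cells with Mpo, Prtn3 or H2-Aa, -0.46 without chip 2, -0.85 without chip 3), Ccr9 (-0.10 without cells with Ly6d, -0.92 without chip 1), Siglech (0.61 with no replicate block, 1.54 without cells with Mpo, Prtn3 or H2-Aa, 1.13 without chip 1), Kit (0.18 with limma, 0.052 without cells with Ly6d) and Gata3 (0.28 with limma). Of 954 alternatives for 80 single genes on chip means, 208 lost the call, 63 of them without cells with Mpo, Prtn3 or H2-Aa, and 6 changed sign: Mpo (0.016 without cells with Ly6d, 0.45 without chip 3), Tcf7 (0.11 with detected genes as covariate), and, without cells with Mpo, Prtn3 or H2-Aa, Gata3 (-1.32), Kit (-0.42) and Irf8 (0.0027). Of 234 alternatives for members per cell of the 26 lists, 10 changed sign: without cells with Mpo, Prtn3 or H2-Aa, T lineage (-0.19), myeloid granule (0.73), MHC class II (0.40), plasma cell (0.15), mature B cell (-0.024) and G2/M (0.85); without chip 2, NK and innate lymphoid (0.0021) and MHC class II (0.10); and without chip 3, plasma cell (0.047) and G2/M (0.14). Over the chips left out in turn, the sums ran from -0.85 to 1.59 for Il7r, -0.92 to 5.99 for Ccr9 and -1.82 to 1.13 for Siglech; the chip means of Mpo from -1.25 to 0.45; and members per cell from -0.35 to 0.0021 for NK and innate lymphoid, -0.87 to 0.10 for MHC class II, -0.075 to 0.047 for plasma cell and -0.65 to 0.14 for G2/M. The excess of detected genes per cell ran from 182.6 to 416.1 over its alternatives. A transcript below 25 CPM in a cell counts as not detected at the depth used.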
